A study of Mus musculus with 18 samples.

Results

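The genes described here are 44 genes of DNA damage signaling and repair, given as a list of gene symbols and found by matching each symbol to the Ensembl gene identifier of a deposited row. All 44 were found among 30072 rows, and all 44 were among the 15054 genes that passed the filter on low counts. Of these, 41 were above that filter in every mouse, whereas Chek1, Brca1 and Rad51b fell below it in 2, 1 and 3 of the 6 control mice, so that these passed partly through the irradiated groups. RNA of the heart was sequenced from 18 wild-type CD-1 mice, called outbred in the methods of the study where the labels give a mixed background, male and female littermates aged 8 weeks or more, with 6 mice in each group. Control mice (ctrl) had isoflurane anesthesia and imaging by computed tomography (CT) without the treatment dose. The other groups had the same anesthesia and CT imaging with a single dose of 25 Gy. They were studied 2 weeks (2wk) or 6 weeks (6wk) later. The sample labels name the septum between the ventricles as the tissue, where the methods of the study name ventricular tissue, and no sex is given for a single mouse. Bulk tissue was sequenced, so that fewer cells of a type and less RNA per cell cannot be told apart in any value below.

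Cells answer a break in DNA with kinases that detect it (ATM, ATR and DNA-PK) and with checkpoint kinases that hold the cell cycle. Breaks of both strands are joined directly by end joining at any time in the cycle, or copied from the sister chromatid by homologous recombination, which is available after DNA has been replicated. Damaged bases, bulky lesions and mismatches are cut out and refilled by base excision, nucleotide excision and mismatch repair. Most of these proteins are present before damage and are controlled largely by modification of the protein, whereas the genes of homologous recombination and of the Fanconi anemia pathway are also known to be expressed mainly in dividing cells. Adult cardiomyocytes rarely divide.

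Total counts per mouse lay between 11522987 and 15501019, and a floor of 3 counts was worth 0.194 to 0.26 CPM (counts relative to the total of the mouse) before scaling between mice. CPM below are after TMM scaling, a method that sets the bulk of genes equal between libraries, with factors from 0.844 to 0.991 for the control mice, from 0.962 to 1.03 for the 2wk mice and from 1.04 to 1.13 for the 6wk mice. Mitochondrially encoded genes held 19.8 to 25.0% of the counts in controls and 16.5 to 20.05% at 6 weeks. The 8 cardiomyocyte markers summed to 85320 to 112776 CPM in controls and were high in every mouse, as the labelled tissue requires.

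The level of each gene in control mice was compared per transcript length, as TPM (transcript abundance scaled for length). Polb, the polymerase that fills the gap in base excision repair, had the highest median of the 44 genes, at 16.04 TPM. Ercc1, part of the nuclease that cuts beside bulky lesions, followed at 13.3 TPM, Parp1, a sensor of strand breaks, at 12.1 TPM, and Trp53bp1 (53BP1), which favors end joining, at 11.1 TPM. The lowest medians were those of Fancd2, the central protein of the Fanconi anemia pathway, at 0.476 TPM, of Brca1, which directs homologous recombination, at 0.419 TPM, and of Rad51b, another gene of that pathway, at 0.216 TPM. Taking the mean of the control mice for each gene, the 44 genes had a median of 3.78 TPM, beside 5.28 TPM over all genes tested, and 14 of the 44 were above that value. Neighboring genes in this order had ranges that overlapped among the control mice.

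**Figure D1:**
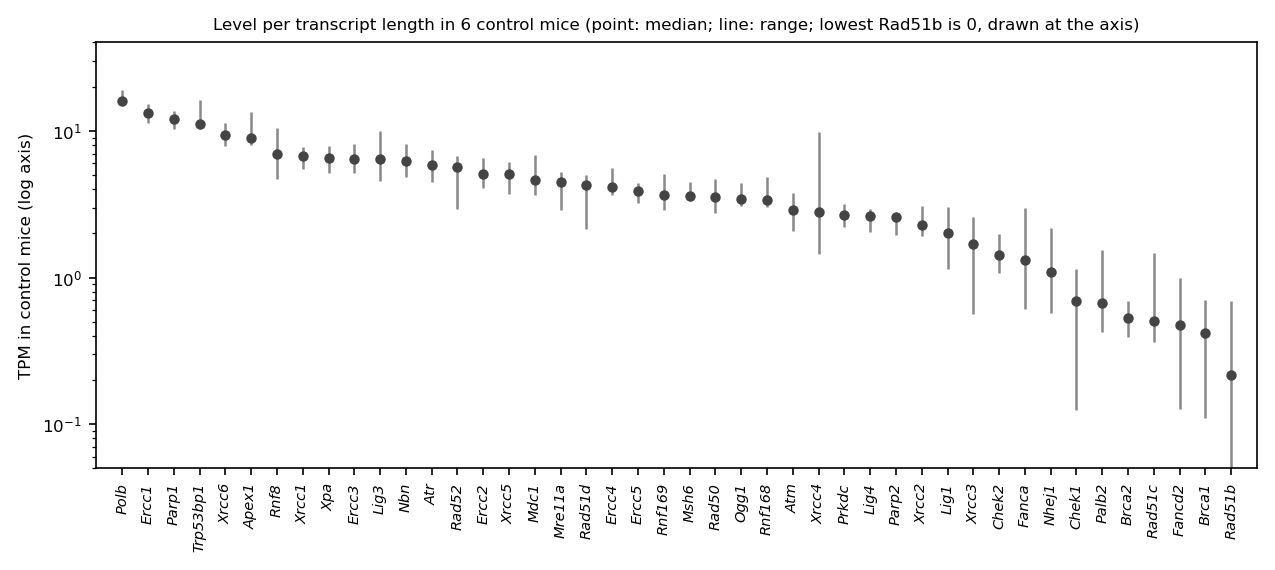
Level of the 44 genes in the 6 control mice, in TPM on a log axis, with a point for the median and a line from the lowest to the highest mouse. Levels run from a median of 16.04 TPM for Polb to 0.216 TPM for Rad51b, and the ranges of neighboring genes overlap.

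At 2 weeks, Rnf169 was higher than in controls and none of the other 43 genes passed the test. RNF169 is a protein that binds the ubiquitin mark placed on histones at breaks and competes there with 53BP1. Its CPM was 22.1 in the lowest control mouse, 25.7 at the median and 29.2 in the highest. At 2 weeks the lowest, median and highest mice were at 35.8, 42.5 and 44.9 CPM. All 6 irradiated mice were above all 6 control mice. This was a log2 fold change of 0.69 (SE 0.0732), or 1.62 on the linear scale, and the adjusted P was 1.82e-05 in edgeR's quasi-likelihood test with adjustment over all genes tested. A call here is an adjusted P under 0.05, and 1 of 44 genes is 2.27%, beside 5.02% of all genes tested in either direction and 3.09% in the direction of a rise. The same gene was the only 1 of 44 whose groups did not overlap, and 1.96% of all genes were higher without overlap. At an unadjusted P under 0.05 there were 8 of the 44. The share of all genes at that looser threshold was not counted, but it is no less than the 5.02% called after adjustment.

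At 6 weeks, 7 of the 44 genes were higher than in controls and none was lower. They were Rnf169, Ercc1, Brca1, Lig1, Fancd2, Chek1 and Rad50. The share called was 15.9%, beside 25% of all genes tested in either direction and 13.5% of all genes in the direction of a rise. At an unadjusted P under 0.05 there were 9 of the 44. The share of all genes at that looser threshold was not counted, but it is no less than the 25% called after adjustment. The median log2 fold change over the 44 genes was -0.03, beside -0.02 over all genes tested, and 20 of the 44 had a positive value. Brca1, Fancd2 and Chek1 had a log2 fold change above 1 as well, which 5.95% of all genes reached with a call in either direction. The study's 2 comparisons with control mice share the same 6 controls. The methods of the study call controls age-matched, but the labels give no time point for them. Effects of time or age thus cannot be told apart from irradiation here.

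**Figure D2:**
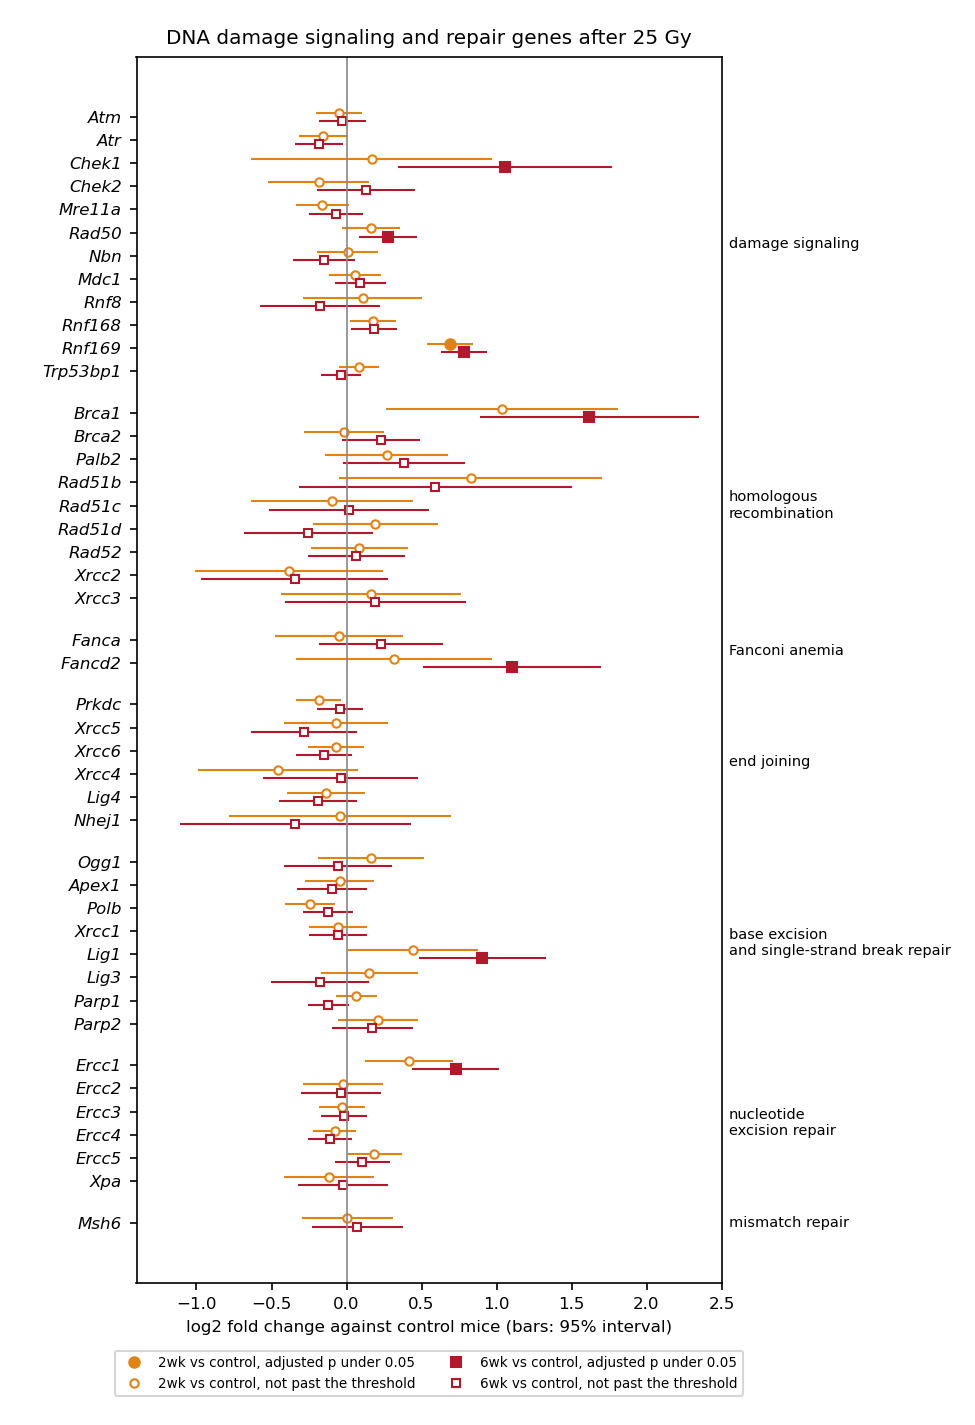
log2 fold change against control mice of each of the 44 genes, grouped by role, at 2 weeks (circles) and 6 weeks (squares), with 95% intervals from the edgeR fit as bars and filled symbols for an adjusted P under 0.05. Only Rnf169 is filled at 2 weeks, 7 genes are filled at 6 weeks, and the other symbols lie on either side of 0.

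Among the 12 genes of damage signaling, Rnf169 was called at both times. The lowest, median and highest CPM at 6 weeks were 38.77, 44.6 and 47.3, again with every irradiated mouse above every control mouse. Against controls it was higher by 0.79 on the log2 scale (SE 0.0732, adjusted P = 9.55e-07), and the difference between 6 and 2 weeks was 0.09, with a 95% interval of -0.06 to 0.24. Its TPM, which is not scaled between mice, had a median of 3.68 for the control mice, 7.39 for the 2wk mice and 9.08 for the 6wk mice. Rnf168, the ligase that places the mark RNF169 reads, had a log2 fold change of 0.18 at each time (adjusted P = 0.167 and 0.0781).

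The gene Rnf169 lies on the minus strand at chr7:99920254-99980448 in GENCODE M21 on GRCm38. A promoter sequence from the RefSeq table of GRCm38.p6 was found for 36 of the 44 genes and for 5 of the 7 called at 6 weeks. That of Rnf169 is shown in part because it held a heptamer of the type bound by E2F factors, the regulators of replication genes. Ercc1 held one too. Both strands of the 250 bases before the start were searched for 4 heptamers, the first TTCCCGC, the second TTGGCGC, the third TTCGCGC and the fourth TTGCCGC, and capitals mark the match. The window of Rnf169 is chr7:99980511-99980557 on the minus strand.
Rnf169: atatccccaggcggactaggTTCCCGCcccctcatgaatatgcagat
The match lay 79 to 73 bases before the start of Rnf169 and, to TTCGCGC on the opposite strand, 39 to 33 bases before that of Ercc1. These starts are those of RefSeq, and the one of Ercc1 lies inside the first exon of the GENCODE gene, so that its match lies within the transcript in that annotation. Such a heptamer was present in 15 of the 36 promoters, 41.7%, beside 15.6% of the 11183 tested genes with a promoter in the table, and in 2 of the 5 called genes with a promoter. The letters TTTGAA of the CHR element of cell cycle genes, also searched, were in 2 of the 36, 5.56%, beside 13% of tested genes, and in 0 of the 5. A match of letters is a description and not a site of binding.

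Chek1, the checkpoint kinase that acts under ATR when replication stalls, had a low level in every group. Its CPM was 0.185, 0.681 and 1.17 in the lowest, median and highest control mouse, where the lowest value is under the floor of 3 counts. At 2 weeks these were 0.262, 0.821 and 1.06 CPM, and at 6 weeks 0.804, 1.38 and 2.15 CPM. The 2-week mice spanned much the same range as the controls, and the lowest 6-week mouse lay within it too, with the other 5 above every control mouse. At 6 weeks the log2 fold change was 1.06 (SE 0.341, adjusted P = 0.0292). The call was lost without control replicate 3, 5 or 6 and without 6wk replicate 1 or 3, with an adjusted P of 0.0549 to 0.0831. It was also lost for Chek1 with log2(TPM + 1), with log2(TPM + 0.1) and with log2(TPM + 1) scaled by TMM (0.50, 0.97 and 0.33, adjusted P = 0.0612, 0.0791 and 0.311). The median TPM of Chek1 was 0.692 in controls and 1.22 at 6 weeks, and adding 1 shrinks a ratio between such low levels. The call was lost with 0.1 added as well, and the reason was not tested.

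Rad50, a subunit of the complex with MRE11 and NBS1 that holds broken ends, had the smallest change of those called. Control mice had 15.2, 17.4 and 20.1 CPM as the lowest, median and highest value, the 2wk mice 16.04, 18.9 and 24.5 CPM, and the 6wk mice 19.6, 20.5 and 24.2 CPM. The groups overlapped, by the highest control mouse. The change at 6 weeks was 0.27 on the log2 scale (SE 0.0923, adjusted P = 0.0366). This call was lost for Rad50 without control replicate 1, 2, 3, 5 or 6 and without 6wk replicate 4, 5 or 6, with an adjusted P of 0.0511 to 0.0882, as well as with log2(TPM + 1) scaled by TMM (0.25, adjusted P = 0.175) and without the filter on low counts (adjusted P = 0.0547). The genes of its partners, Mre11a and Nbn, had log2 fold changes of -0.07 and -0.15 and did not pass.

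The remaining signaling genes did not pass at either time. Atm, the kinase that answers breaks of both strands, had log2 fold changes of -0.05 and -0.03 at 2 and 6 weeks. Atr, its counterpart for stalled replication, had -0.15 and -0.18, with adjusted P values of 0.258 and 0.084, and passed at 6 weeks only without control replicate 5 (-0.22, adjusted P = 0.0419). Chek2, the kinase downstream of ATM, had -0.18 and 0.13. Mdc1, which gathers factors at the marked histone, had 0.06 and 0.09, the ligase Rnf8 0.11 and -0.18, and Trp53bp1 0.08 and -0.04. For Atm, Atr, Mdc1 and Trp53bp1 the 95% interval lay within 0.5 of 0 on the log2 scale at both times.

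**Figure D3:**
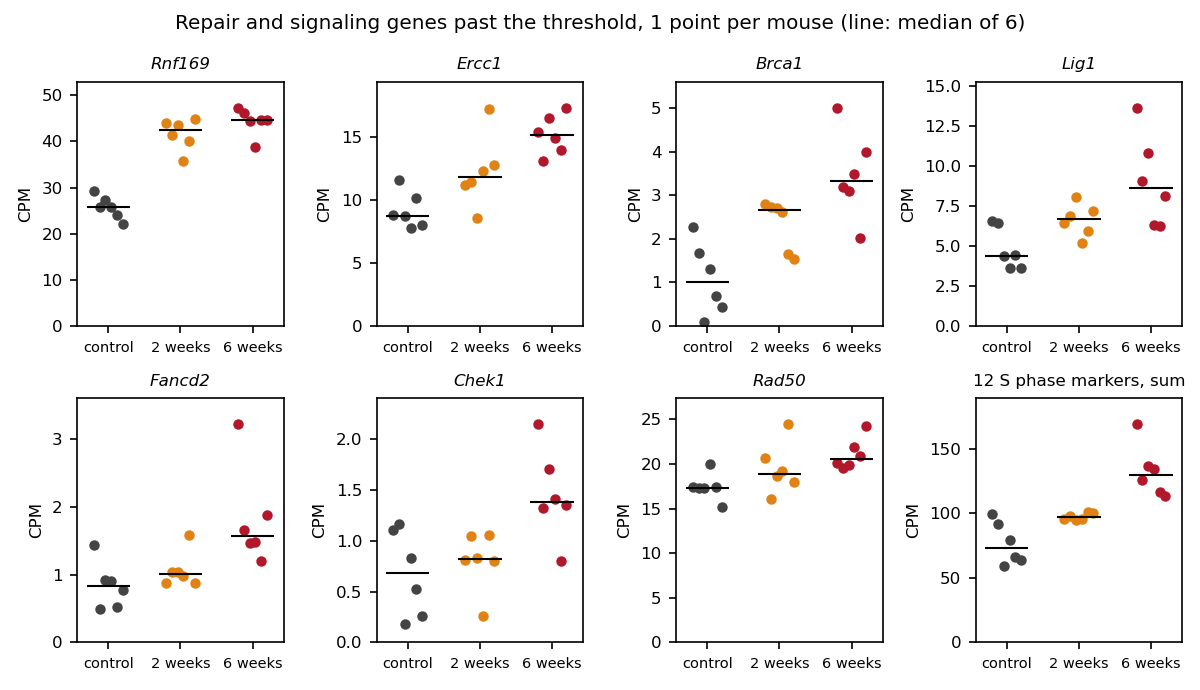
TMM-scaled CPM in each of the 18 mice for the 7 genes called at 6 weeks and for the sum of 12 S phase markers, with 1 point per mouse and a line at the median of 6. Rnf169 is separate from controls at both times and Ercc1 at 6 weeks. At 6 weeks 1 mouse is the highest for Rnf169, Brca1, Lig1, Fancd2, Chek1 and the sum of S phase markers.

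Homologous recombination was represented by 9 genes, of which Brca1 was called at 6 weeks. Brca1 lies on the minus strand at chr11:101488764-101551955. Its CPM was 0.0925, 0.999 and 2.28 in the lowest, median and highest control mouse, 1.54, 2.66 and 2.79 at 2 weeks, and 2.01, 3.34 and 5.01 at 6 weeks. The control mice were the most spread, with counts from 1 to 35, and their highest value lay above the lowest of each irradiated group. At 6 weeks Brca1 was higher by 1.62 on the log2 scale (SE 0.348, adjusted P = 0.00212), and with log2(TPM + 1) scaled by TMM the call was lost for Brca1 (0.38, adjusted P = 0.1503). Its median TPM was 0.419 in controls and 0.879 at 6 weeks, and adding 1 shrinks a ratio between such low levels. Why the call of Brca1 was lost on that scale was not tested. At 2 weeks the log2 fold change of Brca1 was 1.04 (SE 0.369, adjusted P = 0.113), which passed without control replicate 1 (1.42, adjusted P = 0.0337). Its promoter held none of the heptamers above in this window and is shown for the sequence CCAAT, the letters of the NF-Y motif, in capitals, 86 to 82 bases before the start on the strand of the gene (chr11:101552017-101552061).
Brca1: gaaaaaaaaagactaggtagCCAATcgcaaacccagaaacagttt
CCAAT was found in 18 of the 36 promoters, 50%, beside 40% of the tested genes with a promoter, and in 1 of the 5 called genes with a promoter.

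None of the other 8 genes of homologous recombination passed at either time. Brca2, which prepares the broken end for strand exchange, was at 5.96 CPM at the control median and 6.75 CPM at 6 weeks, with a log2 fold change of 0.23 (adjusted P = 0.198). Palb2, which links BRCA1 to BRCA2, had 0.38 (adjusted P = 0.165), and passed without control replicate 1, its highest control mouse (0.58, adjusted P = 0.0277). Of the genes whose products assist strand exchange, log2 fold changes at 6 weeks were 0.59 for Rad51b, 0.02 for Rad51c, -0.26 for Rad51d, -0.35 for Xrcc2 and 0.19 for Xrcc3. Rad52, which anneals single strands, had 0.07. For Rad51b, with a control median of 0.264 CPM and 0 counts in the lowest control mouse, the 95% interval ran from -0.32 to 1.5, which does not exclude a change of over 1.

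Of the 2 Fanconi anemia genes, which serve the repair of cross-links between strands, Fancd2 was called at 6 weeks and Fanca was not. Fancd2 was at 0.5, 0.839 and 1.43 CPM in the lowest, median and highest control mouse, at 0.880, 1.01 and 1.59 CPM at 2 weeks, and at 1.21, 1.57 and 3.22 CPM at 6 weeks. The groups overlapped, and the highest mouse at 6 weeks stood above the next at 1.88 CPM. The rise at 6 weeks was 1.10 on the log2 scale (SE 0.283, adjusted P = 0.00757), and without 6wk replicate 1, that highest mouse, it was 0.84 (adjusted P = 0.0223). On the TPM scale the call was lost, where log2(TPM + 1) gave 0.24 for Fancd2 and the same values scaled by TMM gave 0.10. The median TPM of Fancd2 was 0.476 in controls and 0.735 at 6 weeks. Adding 1 shrinks a ratio between levels this low, so these values are not of like size with 1.10. The call of Fancd2 was also lost with log2(TPM + 0.1), and why it was lost on the TPM scales was not tested. Fancd2 shares 3.24% of its exon bases with Fancd2os on the opposite strand, for which there was no test result. Fanca, a subunit of the ligase complex that acts on FANCD2, had a log2 fold change of 0.23 at 6 weeks (adjusted P = 0.434).

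End joining held no call among its 6 genes. With TMM scaling all 6 had a negative log2 fold change at both times, with medians of -0.10 and -0.17, whereas with library size alone 4 of the 6 were positive at each time. On the scale of log2(TPM + 1), 5 and then 6 of the 6 were positive without scaling between mice, and none and then 2 with TMM scaling. Prkdc, the catalytic subunit of DNA-PK, was at 31.0 CPM at the control median, 26.8 CPM at 2 weeks and 30.3 CPM at 6 weeks, with a log2 fold change of -0.19 (adjusted P = 0.148) and then -0.04. The subunits of the Ku ring that holds the ends had -0.28 for Xrcc5 and -0.15 for Xrcc6 at 6 weeks. The ligase Lig4 had -0.19, its partner Xrcc4 -0.04, and Nhej1, which bridges the ends, -0.34 with a wide interval of -1.11 to 0.43.

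Base excision and single-strand break repair had 8 genes, of which Lig1 was called at 6 weeks. LIG1 is the ligase that also joins the fragments of the lagging strand during replication. Its CPM was 3.61, 4.40 and 6.57 in the lowest, median and highest control mouse, 5.17, 6.68 and 8.07 at 2 weeks, and 6.27, 8.61 and 13.7 at 6 weeks. The 2 lowest mice at 6 weeks lay below the highest control mouse. Against controls it was higher by 0.91 on the log2 scale (SE 0.202, adjusted P = 0.0029) at 6 weeks and 0.44 (SE 0.208, adjusted P = 0.235) at 2 weeks. Lig1 shares 5.79% of its exon bases with Zswim9 on the opposite strand. Zswim9 had log2 fold changes of 0.41 at 2 weeks and 0.32 at 6 weeks and was not called (adjusted P = 0.150 and 0.171). Lig3, which seals nicks in this pathway together with XRCC1 and in mitochondria, had 0.15 and -0.18 and was not called, and Xrcc1 itself had -0.05 at each time.

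Polb was at 18.04 CPM at the control median, 15.2 CPM at 2 weeks and 16.8 CPM at 6 weeks. Its log2 fold change at 2 weeks was -0.24 (SE 0.0795, adjusted P = 0.083), which DESeq2 placed just past the threshold (adjusted P = 0.0495). The polymerizing sensors of breaks, Parp1 and Parp2, had log2 fold changes of -0.12 and 0.17 at 6 weeks. Ogg1, the glycosylase for oxidized guanine, had 0.17 at 2 weeks and -0.06 at 6 weeks. Apex1, the nuclease that cuts the emptied site, had -0.05 and -0.09, but 61.7% of its exon bases are shared with Pip4p1 on the opposite strand, and whether the counting used strand is not given in the sources used here.

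In nucleotide excision repair, Ercc1 was called at 6 weeks and the other 5 genes were not. Ercc1, on the plus strand at chr7:19344778-19356524, was at 7.77, 8.74 and 11.6 CPM in the lowest, median and highest control mouse, at 8.55, 11.8 and 17.2 CPM at 2 weeks, and at 13.0, 15.1 and 17.3 CPM at 6 weeks. All 6 mice at 6 weeks were above all controls, while the 2-week mice spanned the gap between these groups. At 6 weeks it was higher by 0.73 on the log2 scale (SE 0.138, adjusted P = 0.000774). At 2 weeks it was 0.42 (SE 0.139, adjusted P = 0.0889), which passed without 2wk replicate 3 (0.50, adjusted P = 0.0398). Ercc1 and Rnf169 are the 2 of 44 genes with no overlap between controls and 6 weeks, both of them higher, beside 5.8% of all genes that were higher without overlap. Ercc1 shares 3.41% of its exon bases with Cd3eap on the opposite strand, and Cd3eap had a log2 fold change of 0.04 (adjusted P = 0.841).

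ERCC1 works as a pair with the nuclease XPF, the product of Ercc4. Ercc4 was at 14.5 CPM at the control median and 13.7 CPM at 6 weeks, with a change of -0.11 on the log2 scale (SE 0.069, adjusted P = 0.266) and a 95% interval of -0.26 to 0.03. The 2 genes of this pair therefore had intervals that did not meet, 0.44 to 1.02 for Ercc1 and that of Ercc4, although their difference was not tested. The helicases Ercc2 and Ercc3 had -0.03 and -0.02 at 6 weeks, the nuclease Ercc5 0.10, and the damage-binding factor Xpa -0.02. Msh6, the mismatch sensor and the sole gene of its pathway here, had 0.01 at 2 weeks and 0.07 at 6 weeks.

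Of the genes not called, most were measured closely enough to limit a change. The 95% interval lay within 1 of 0 on the log2 scale for 40 of 43 at 2 weeks, all but Brca1, Rad51b and Xrcc2, and for 35 of 37 at 6 weeks, all but Rad51b and Nhej1. It lay within 0.5 for 27 and 25 of them. The median width on each side was 0.291 and 0.268. These intervals cover the spread between mice with TMM scaling and not the choice of scaling.

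Between 6 and 2 weeks no gene of the 44 passed the test with edgeR or with DESeq2, beside 5.33% of all genes tested with edgeR. An unadjusted P under 0.05 with edgeR was found for 7 of the 44. The share of all genes at that looser threshold was not counted, but it is no less than the 5.33% called after adjustment. Chek1 had the largest log2 difference, 0.89 higher at 6 weeks (SE 0.327, adjusted P = 0.119). Fancd2 followed with 0.79 (adjusted P = 0.0912), Lig1 had 0.46 (adjusted P = 0.175) and Ercc1 0.31 (adjusted P = 0.186). Ercc1 passed without 2wk replicate 5 (0.44, adjusted P = 0.0477). The 3 genes lower at an unadjusted P under 0.05 were Rad51d with -0.45, Lig3 with -0.33 and Parp1 with -0.19. Parp1 had an adjusted P of 0.0972, and of 0.0483 in a fit of the 2 irradiated groups alone. A call at 6 weeks without one at 2 weeks, as for Ercc1, Brca1, Lig1, Fancd2, Chek1 and Rad50, is thus not shown to be a difference between these times.

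A list of 93 other genes of the same pathways gave the surroundings of the 44. At 2 weeks none was called by edgeR, beside 5.02% of all genes, while DESeq2 called none higher and 1 lower. With edgeR 15 of the 93 had an unadjusted P under 0.05. The share of all genes at that looser threshold was not counted, but it is no less than the 5.02% called after adjustment. At 6 weeks 19 were higher and 3 lower, 23.7% of the list, beside the 25% of all genes. Homologous recombination held 9 of the 19, out of 17 genes, and the median log2 fold change of these 17 was 0.49. The 5 genes with the smallest adjusted P were Brip1, a helicase that binds BRCA1, with 1.36 (adjusted P = 0.000115), Mbd4, a glycosylase, with 1.17 (adjusted P = 0.000605), Fanci, the partner of FANCD2, with 1.80 (adjusted P = 0.000841), Clspn, which hands CHEK1 to ATR, with 1.53 (adjusted P = 0.00189), and Fen1, a flap nuclease of replication and base excision repair, with 0.80 (adjusted P = 0.00229). The 3 lower genes were Polq with -0.38, Mlh3 with -0.25 and Gtf2h5 with -0.22, of which Mlh3 and Gtf2h5 had positive values with library size alone. The call of Polq was lost without control replicate 1, 4 or 6 or 6wk replicate 2, 5 or 6 (adjusted P from 0.0554 to 0.1002), and that of Gtf2h5 without 6wk replicate 6 (adjusted P = 0.0562). Between 6 and 2 weeks Brip1 (0.73, adjusted P = 0.0319) and Rad18 (0.65, adjusted P = 0.0295) were higher at 6 weeks, but the count ran from 0 to 4 when single mice were left out and was 0 without 2wk replicate 1 and without 6wk replicate 1.

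**Figure D4:**
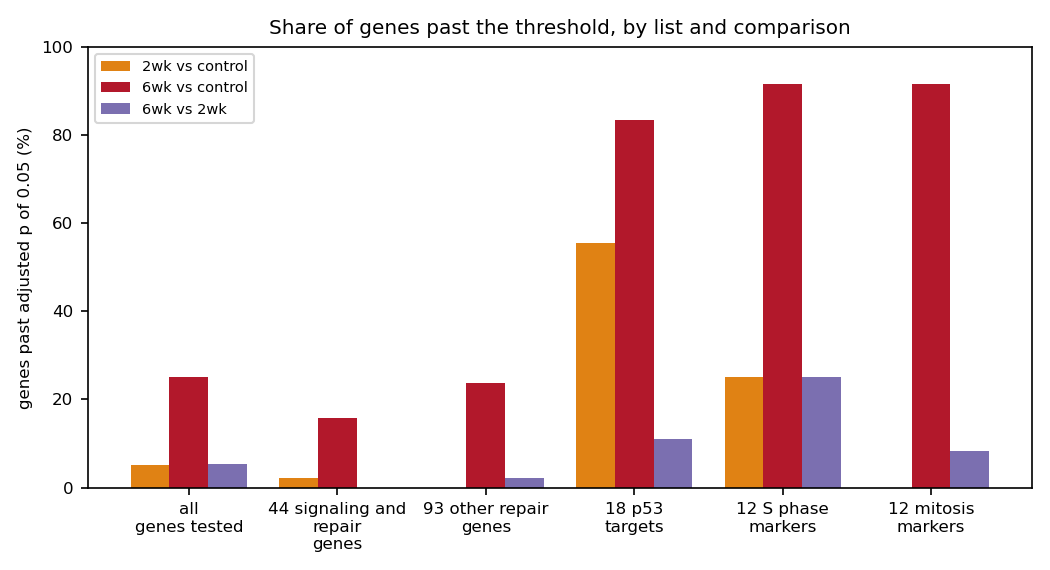
Percent of genes with an adjusted P under 0.05 in each of the 3 comparisons, for all genes tested, the 44 genes, 93 other repair genes, 18 p53 targets, 12 S phase markers and 12 mitosis markers; each bar counts both directions. The 44 genes stand at 2.27%, 15.9% and 0%, beside 5.02%, 25% and 5.33% of all genes.

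Markers of replicating cells were also higher at 6 weeks. Of 12 S phase markers, 3 were higher at 2 weeks (Cdt1, Mcm3 and Mcm2) and 11 at 6 weeks, such as Mcm6 with 0.91, Mcm2 with 1.09 and Cdt1 with 1.29. The count at 2 weeks fell to 0 or 1 without control replicate 3, 4, 5 or 6, without any single 2wk mouse or without 6wk replicate 2 or 3. Summed over the 12, their level ran from 59.0 to 99.1 CPM in the control mice, from 94.7 to 101 CPM in the 2wk mice and from 113 to 169 CPM in the 6wk mice, and no 6-week mouse overlapped a control mouse. At 6 weeks, replicate 1 had the highest S phase sum, with the next at 137 CPM, and also the highest Brca1, Lig1, Fancd2, Chek1 and Rnf169. Ercc1 and Rad50 were highest in replicate 6, which had the lowest S phase sum of its group. Of 12 mitosis markers, none was called at 2 weeks (1 at an unadjusted P under 0.05 with edgeR, and none called by DESeq2) and 11 were higher at 6 weeks, among them Top2a with 1.55, Plk1 with 1.34 and Cdk1 with 1.37, but the count was 4 to 7 without control replicate 3, 5 or 6 or 6wk replicate 1, 3 or 6. Summed over these 12 mitosis markers, the level ran from 42.9 to 90.2 CPM in the control mice. It ran from 80.4 to 146 CPM at 2 weeks and from 82.2 to 130 CPM at 6 weeks, so the groups overlapped. Of the 6wk mice, replicate 2 had the highest mitosis sum and replicate 6, at 126 CPM, the next. The part of replicating cells in the values of the repair genes was not tested.

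Targets of p53, the transcription factor that ATM and the checkpoint kinases activate, were a further list measured in these mice. Of 18 such targets, 10 were higher at 2 weeks, and the smallest adjusted P were those of Phlda3 with 2.11 on the log2 scale, Eda2r with 2.40 and Sesn2 with 1.90. At 6 weeks 12 were higher, with the smallest adjusted P for Phlda3 (2.21), Eda2r (2.59) and Zmat3 (1.73), and 3 were lower, namely Ccng1 (-0.54), Sesn1 (-0.45) and Rrm2b (-0.27), of which Rrm2b turned positive on unscaled TPM. In the same mice 1 of the 12 damage signaling genes was called at 2 weeks (Rnf169) and 3 of 12 at 6 weeks (Rnf169, Chek1 and Rad50). These are 8.33% and 25%, beside 5.02% and 25% of all genes tested in either direction. The share of targets called was 55.6% and 83.3% at the 2 times, and the difference from the share of the repair genes was not tested.

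Markers of cell types were measured at 6 weeks too, beside 25% of all genes called in either direction and 13.5% called higher. Of the genes tested, 87.5% were called for cardiomyocytes and macrophages, 66.7% for B cells and 50% for endothelial and T and NK cells. The fibroblast, smooth muscle and pericyte, and erythroid lists, at 14.3%, 16.7% and 25%, were near or below the share of all genes. Of 8 cardiomyocyte markers 7 were lower, and their sum was 75554 to 83811 CPM at 6 weeks, with no overlap with the control mice. Of 8 macrophage markers 6 were higher and Cd163 was lower, and their sum was 175 to 510 CPM in controls and 420 to 565 CPM at 6 weeks. Of the T and NK cell markers 4 of 8 were above the filter and 2 were higher, with a sum of 0.833 to 2.08 CPM in controls and 4.06 to 5.65 CPM at 6 weeks, and Ncr1 was at 0 in every control mouse. Of the B cell markers 3 of 5 were above the filter and 2 were higher, with 0.463 to 0.832 CPM in controls and 1.13 to 2.63 CPM at 6 weeks. Of 8 endothelial markers Pecam1 (0.90) and Cdh5 (0.53) were higher and Tek (-0.75) and Tie1 (-0.44) lower, with a sum of 865 to 1065 CPM in controls and 1038 to 1391 CPM at 6 weeks. Of 7 fibroblast markers Pdgfra (-0.88) was lower, and the sums were 1141 to 3897 CPM and 1478 to 2151 CPM. Of 6 smooth muscle and pericyte markers Cspg4 (0.45) was higher, and the sums were 794 to 1094 CPM and 758 to 1098 CPM. Of 5 erythroid markers 4 were above the filter and Hba-a1 (-2.20) was lower, with sums of 45.8 to 1119 CPM and 40.3 to 108 CPM. The part of these cells in the level of any repair gene was not tested.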

How the data were processed

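RNA of the 18 hearts was sequenced singly. The authors aligned reads to GRCm38 with STAR, estimated transcripts with Salmon 1.0 and used tximport for sums per gene. These estimated counts, as deposited, carry no normalization between mice. TPM values deposited with them come from the same quantification and are scaled for length and depth within a mouse.

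After rounding, counts were tested with edgeR 4.0.16 in R 4.3.3. The filter asked for 0.23 CPM or more in 6 or more mice, libraries were scaled by TMM (trimmed mean of M-values), and the 3 groups were fitted in 1 quasi-likelihood model (legacy = FALSE). Tests were two-sided F tests, adjusted by Benjamini-Hochberg over all genes of a comparison. The SE is the absolute log2 fold change over the square root of F. Each mouse was a replicate, and no counts were identical between mice. All listed symbols were matched to GENCODE M21 identifiers. The code was tested on simulated counts. Alternatives used DESeq2 1.42.0, limma voom 3.58.1, other scalings, filters and thresholds, TPM with pseudocounts 1 and 0.1, a replicate block, Y-linked expression as covariate, and each mouse left out.

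The 44 genes and all lists were chosen with earlier results of these data known. All 44 are named, with the lowest, median and highest mouse for those called, and of other lists the 5 (repair genes) or 3 genes with the smallest adjusted P in a comparison, besides groups of 5 or fewer and genes that a limit touches. The floor of 3 counts covers counting error only.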

Additional observations from a re-analysis of the deposited data

Results flagged for a closer look

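Among 132 groups of 6 mice (44 genes in 3 groups), 12 had a mouse whose gap to its nearest neighbor was over the critical share of the group's range in CPM (Dixon's test at 95%). Chance flags about 1 group in 20. Fancd2 was flagged at both times, as 2wk replicate 5 was highest at 1.59 CPM and 6wk replicate 1 highest at 3.22 CPM. For Chek1, 2wk replicate 4 was lowest at 0.262 CPM, and for Rnf169, 6wk replicate 4 was lowest at 38.77 CPM, still above every control mouse. Control replicate 1 was highest for Palb2 at 2.21 CPM and for Rad51c at 1.95 CPM, and control replicate 6 was highest for Xrcc2 at 8.97 CPM. At 2 weeks, replicate 5 was lowest for Rad51d at 6.37 CPM and replicate 1 was lowest for Ogg1 at 2.42 CPM. At 6 weeks, replicate 4 was highest for Nbn at 18.1 CPM, replicate 3 was highest for Xrcc3 at 4.65 CPM and replicate 5 was lowest for Ercc4 at 11.99 CPM.

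None of the 44 genes differed between 6 and 2 weeks by the test of that difference, but 8 genes of the surrounding lists did (edgeR, adjusted P under the threshold), each higher at 6 weeks. They were Brip1 with a log2 difference of 0.73, Rad18 with 0.65, Zmat3 with 0.57, Gdf15 with 1.62, Mcm2 with 0.56, Mcm6 with 0.53, Rrm2 with 0.64 and Plk1 with 1.07. Zmat3, Gdf15 and Mcm6 stayed called with any single mouse left out. Brip1 was lost without 2wk replicate 1, 2, 4 or 6 or 6wk replicate 1, 2, 3, 5 or 6 (adjusted P up to 0.0671), and Rad18 without 2wk replicate 1, 2 or 3 or 6wk replicate 1 or 2 (up to 0.0672). Mcm2 was lost without 2wk replicate 1, 2, 3 or 6 or 6wk replicate 1, 3 or 5 (up to 0.0791), and Rrm2 without 2wk replicate 2, 3, 4 or 6 or 6wk replicate 1, 3 or 6 (up to 0.0733). Plk1 was lost without any single 2wk mouse or 6wk replicate 1, 2, 3 or 6 (up to 0.098).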

How the results depend on the processing

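The scaling between mice moved the counts most. With library size alone all genes tested had a median log2 fold change of 0.15 at 2 weeks and 0.24 at 6 weeks. There 6 and 15 of the 44 genes were higher, beside 11.9% and 38.7% of all genes called in either direction. With log2(TPM + 1) these medians were 0.18 and 0.29, with 8 and 23 higher, and 1 higher between 6 and 2 weeks. The shares of all genes called in either direction were then 18.7%, 49.6% and 7.13%. With log2(TPM + 0.1) there were 8, 24 and 1, beside 20.1%, 49.6% and 4.99% of all genes. log2(TPM + 1) scaled by TMM, chosen after seeing the data, called 1, 3 and 0 higher, beside 3.17%, 21.6% and 3.37% of all genes. Brca1 had an adjusted P of 0.1503 there. Fancd2 and Chek1 were lost on all 3 TPM scales (adjusted P of up to 0.650 and 0.311), and Rad50 with TPM scaled by TMM and without the filter (up to 0.175). Over all genes the split at 6 weeks was 2029 higher and 1731 lower with TMM, and 5494 higher and 326 lower with library size alone. At an adjusted P under 0.10, 2 genes were higher and 1 lower at 2 weeks, 8 higher and 1 lower at 6 weeks, and 1 higher and 1 lower between the times. The shares of all genes at that threshold were 9.00%, 31.9% and 9.80%. With a log2 fold change above 1 also required, 0 and 3 were higher. DESeq2 called 1 lower at 2 weeks, and a fit of the 2 irradiated groups alone called 1 lower at 6 than at 2 weeks. Leaving out single mice gave 1 to 2 higher at 2 weeks, 5 to 7 higher and 0 to 1 lower at 6 weeks, and 0 to 1 higher between the times. Rnf169, Ercc1 and Lig1 stayed past the threshold in every other setting run, except where a log2 fold change above 1 was required.

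Negative values at 6 weeks turned positive and past the threshold on unscaled data. With library size alone these were Trp53bp1 (0.23) and Ercc3 (0.25), as well as the formerly lower Gtf2h5 (0.045) and Mlh3 (0.018), which were no longer called. With log2(TPM + 1) they were Atm 0.31, Trp53bp1 0.39, Prkdc 0.31, Xrcc6 0.32, Apex1 0.36, Polb 0.27, Xrcc1 0.29, Parp1 0.26, Ercc3 0.31 and Ercc4 0.27, with Gtf2h5 0.14, Mlh3 0.13 and Rrm2b 0.015. With log2(TPM + 0.1) they were Atm 0.40, Trp53bp1 0.42, Prkdc 0.40, Xrcc6 0.34, Apex1 0.39, Polb 0.29, Xrcc1 0.33, Parp1 0.28, Ercc3 0.35 and Ercc4 0.31, with Gtf2h5 0.15, Mlh3 0.16 and Rrm2b 0.017. The cause was not tested beyond the shift of all genes.

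The labels do not say whether replicate numbers pair the mice. Of 18 same-numbered pairs, 2 had deviations correlated over 0.1 (range -0.0828 to 0.106). Pairs with different numbers were not compared, so these values cannot decide whether the mice were paired. With the replicate number as a block, 1, 7 and 0 of the 44 genes were higher and 0 lower in the 3 comparisons, as without it, while of the other repair genes 0 in place of 2 were higher between 6 and 2 weeks. Depth limits Chek1, Brca1 and Rad51b, whose lowest control mice were under 3 counts.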
